A study of Mus musculus with 4 samples.

Results

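The genes of sterol and fatty acid synthesis were followed in RNA sequencing libraries of regulatory T cells (Treg cells, the T cells that depend on FOXP3 and hold other immune cells in check). The genes were taken by symbol from a list of 37 that spans the mevalonate pathway, the steps from squalene to cholesterol, the SREBP regulators, sterol transport and fatty acid synthesis. Of these, 36 of the 23284 symbols in the files matched, and Msmo1 was present under its older symbol Sc4mol. The cells came from C57BL/6 mice that were 12 to 13 months old, either from spleen, the control tissue, or from eWAT, the visceral fat beside the epididymis. The mice were wild type (WT) or PPARg-2KR, a germline form of the fat-cell nuclear receptor PPARG in which a pair of lysines is replaced by arginine, a change known to mimic the deacetylated receptor. Each combination of tissue and genotype has 1 library, and the labels name no treatment. Where 4 values stand in a row, the pair from spleen comes before the pair from eWAT, each with WT first. The sources used here do not give whether a library holds 1 animal or a pool, so a p-value reflects no more than how these libraries vary. Between the libraries of 1 tissue that spread takes in the genotype difference as well as animal and technical variation, which cannot be separated here.

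Cells make cholesterol from acetyl-CoA through mevalonate, isoprenoids, squalene and lanosterol, and make fatty acids from the same acetyl-CoA. Both routes are switched on by the SREBP transcription factors, which SCAP escorts from the endoplasmic reticulum when sterols are low and which the INSIG proteins hold back when sterols are high. Dividing T cells are known to raise both routes, and mevalonate products have been tied to Treg function.

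Read counts summed to between 8315569 and 15993889 per library, and levels are given as CPM, counts scaled to library size by TMM (trimmed mean of M-values), unless FPKM, fragments scaled to library size and transcript length, is named. Foxp3, Cd3e and the other 5 Treg and T cell markers listed had reads in all 4 libraries, and of these 7, 1 was higher in eWAT and 3 were lower. Cd3e was at 1387, 1161, 672 and 572 CPM, and Cd3d at 921, 803, 361 and 278 CPM. Cd4 was at 638, 658, 412 and 399 CPM, and Foxp3 at 1408, 1298, 1160 and 801 CPM. Ctla4 went the other way, at 775, 749, 2420 and 1872 CPM. Markers of other cells were higher in eWAT, with 11 of 11 for macrophages and monocytes, 8 of 8 for dendritic cells and antigen presentation, 8 of 8 for fibroblasts and mesothelium and all 4 adipocyte markers tested of 8. Endothelial markers were mixed, with 5 higher and 1 lower of 6, as were B cell markers, with 3 higher and 1 lower of 5. The lower ones were Pecam1, at 172, 191, 63.4 and 112.2 CPM, and Cd79b, at 58.4, 48.7, 31.3 and 42.0 CPM. Over all genes tested, 33.7% were called higher in eWAT and 23.2% lower. Some markers, such as Cav1 and Lum with 0 reads in both spleen libraries, passed the filter on low counts through eWAT alone. For those the filter favoured a rise. Macrophage markers summed to 138, 95.5, 1450 and 1879 CPM, and the dendritic cell list to 1017, 683, 8813 and 15871 CPM. The adipocyte sum was 5.90, 5.77, 55.3 and 60.6 CPM, of which Lpl alone held 2.50, 3.67, 37.8 and 34.8 CPM. Adipoq had 3, 8, 0 and 11 reads. The part of these cells in the results that follow was not tested, and in bulk samples fewer cells of a type cannot be told apart from less RNA per cell.

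Promoters are shown for members at which the sterol response is classically described, so that the letters can be read beside the expression values. They are RefSeq sequences of build GRCm38.p6, which is not the mm9 build of the files, and run from 250 bases before to 50 bases after the gene start, 5′ to 3′ on the gene's strand. Capitals mark every match, on either strand, to a sterol regulatory element (TCACNCCAC), an E-box (CACGTG) or a CCAAT box (CCAAT, or ATTGG on the other strand). Insig1 at chr5:28071162-28071461 and Hsd17b7 at chr1:169969156-169969455 are members that rose in eWAT, and Sc4mol (RefSeq symbol Msmo1) at chr8:64733529-64733828 and Mvd at chr8:122443373-122443672 are members that fell. Hmgcs1 at chr13:119690101-119690400 holds the single match to the sterol regulatory element among the 28 members with a promoter entry. Insig1 and Hmgcs1 are on the plus strand, and the other three are on the minus strand.
Insig1: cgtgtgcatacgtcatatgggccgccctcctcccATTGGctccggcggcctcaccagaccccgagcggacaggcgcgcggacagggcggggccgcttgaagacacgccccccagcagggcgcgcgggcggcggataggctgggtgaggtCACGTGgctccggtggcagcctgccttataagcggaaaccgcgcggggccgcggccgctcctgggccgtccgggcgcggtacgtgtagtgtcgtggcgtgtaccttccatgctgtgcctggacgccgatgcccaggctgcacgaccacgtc
Hsd17b7: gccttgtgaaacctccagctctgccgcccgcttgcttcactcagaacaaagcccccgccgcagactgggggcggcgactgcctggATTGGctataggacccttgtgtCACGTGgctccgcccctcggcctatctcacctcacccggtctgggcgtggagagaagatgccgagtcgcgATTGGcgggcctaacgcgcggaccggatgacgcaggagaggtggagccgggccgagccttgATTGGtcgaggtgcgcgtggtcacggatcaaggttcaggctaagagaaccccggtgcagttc
Sc4mol: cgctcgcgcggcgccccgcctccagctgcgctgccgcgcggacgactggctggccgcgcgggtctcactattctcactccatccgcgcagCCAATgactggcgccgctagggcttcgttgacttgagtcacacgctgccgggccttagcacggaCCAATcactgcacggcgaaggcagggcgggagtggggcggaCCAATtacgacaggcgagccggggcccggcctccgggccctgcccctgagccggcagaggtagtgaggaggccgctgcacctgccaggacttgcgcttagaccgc
Mvd: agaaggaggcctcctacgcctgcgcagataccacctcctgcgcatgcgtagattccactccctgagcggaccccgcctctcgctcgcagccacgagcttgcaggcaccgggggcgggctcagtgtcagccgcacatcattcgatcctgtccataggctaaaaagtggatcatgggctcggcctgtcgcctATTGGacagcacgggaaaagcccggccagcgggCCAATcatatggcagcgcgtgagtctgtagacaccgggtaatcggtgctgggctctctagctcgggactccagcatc
Hmgcs1: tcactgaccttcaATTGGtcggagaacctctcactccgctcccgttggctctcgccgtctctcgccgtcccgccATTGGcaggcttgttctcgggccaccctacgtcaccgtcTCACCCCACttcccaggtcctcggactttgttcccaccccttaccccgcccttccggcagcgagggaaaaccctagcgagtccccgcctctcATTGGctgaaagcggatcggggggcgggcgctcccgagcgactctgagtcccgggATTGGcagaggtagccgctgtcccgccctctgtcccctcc

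Promoter entries were found for 28 of the 36 members, with 36 start sites. Fads1, Fdft1, Fdps, Npc1, Scd1, Scd2, Sqle and Stard4 had no entry and were not searched. The sterol regulatory element in this strict spelling was in 1 of the 36 member promoters, at 137 bases before the Hmgcs1 start, and in 1.24% of all 32851 promoters of the same length. The CCAAT box, which binds the SREBP partner NF-Y, was in 24 of the 36 and in 37.4% of all promoters. By tissue call, 4 of 6 members that fell, 2 of 5 that rose and 16 of 16 that did not pass the threshold had a CCAAT box. Here a member counts if any of its start sites matches, and the share of all genes on that basis was not computed. The E-box was in 6 of the 36 and in 7.15% of all. A match is a description of the letters in this window only.

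Hmgcs1, which encodes the synthase at the head of the mevalonate pathway, could not be read in these files. It was listed at 0 reads and at 0 FPKM in all 4 libraries. The files place it at a pair of loci on chr13_random, an unplaced contig of mm9, and the gene loci on contigs of that kind numbered 143, of which 0 had an FPKM above 0 in any library. On the placed chromosomes 22357 of 23556 loci had one. The 0 therefore describes these contigs in the deposited tables and gives no level for Hmgcs1.

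For other members the 2 deposited measures were compared by scaling counts to library size and to the longest transcript's length and dividing by the FPKM. The median ratio was 0.958 over 32 members with an FPKM of 1 or more in all libraries, and 0.952 over 10236 symbols. Idi1, the isomerase that makes the second isoprenoid building block, stood at 6.64 to 8.31 CPM by counts but at 30.1 to 39.6 FPKM, a median ratio of 0.0709. Fdps, which joins the isoprenoid units into farnesyl diphosphate, had a median ratio of 0.468 and Acat2, the cytosolic thiolase that starts the pathway, of 0.527. Ratios under 0.6 were found for 8.27% of all symbols. The sources used here do not say how these reads were counted, so the levels of Idi1, Fdps and Acat2 are uncertain. Their differences between libraries can also depend on the measure. For Idi1, the 2KR over WT log2 ratio in eWAT was −0.32 on counts and 0.06 on FPKM, and in spleen −0.15 and 0.21.

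**Figure D1:**
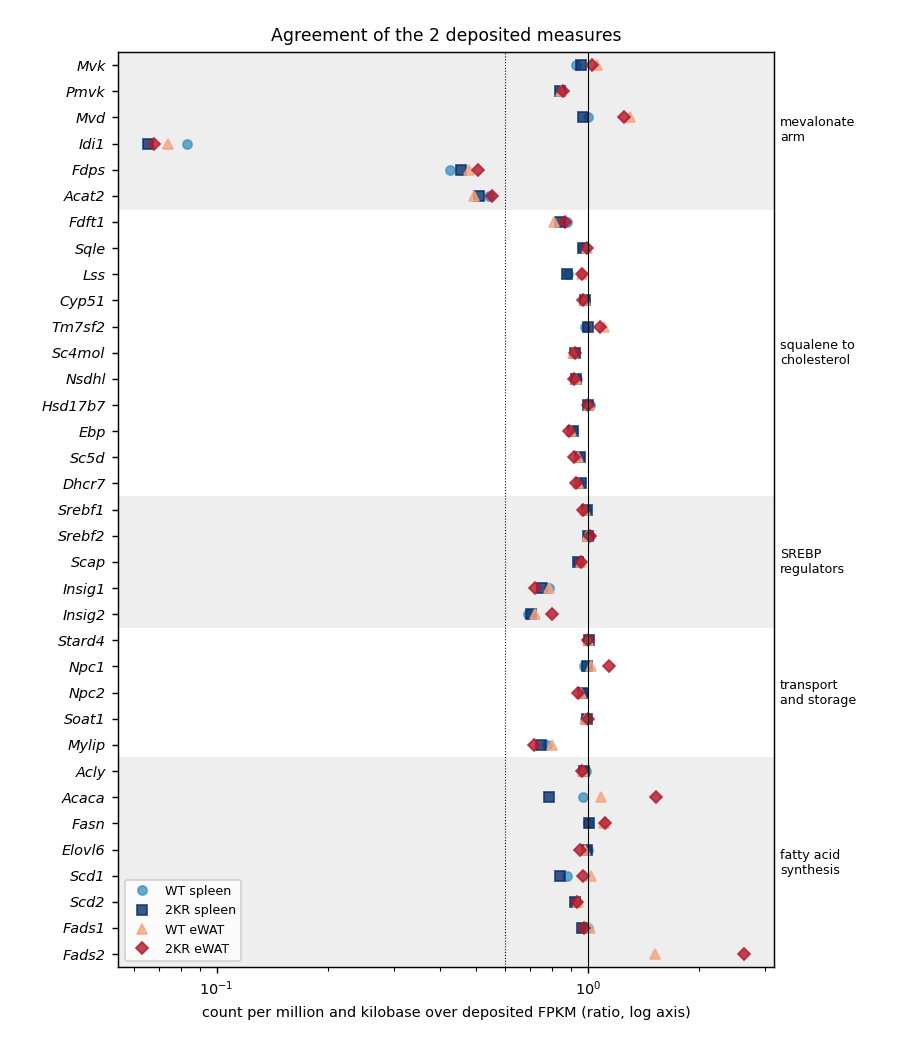
Ratio of counts, scaled to library size and the longest transcript's length, to the deposited FPKM (x axis, log scale) for 35 members (rows, by role), with 1 point for each of the 4 libraries; the solid line marks 1 and the dotted line 0.6. Idi1 lies near 0.07 in all 4 libraries, Fdps and Acat2 lie near 0.5, most members lie close to 1, and Fads2 has no ratio in spleen, where its FPKM was 0.

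The tissue comparison set the 2 eWAT libraries against the 2 spleen libraries, and asked which of these genes differ between fat and spleen Treg cells. Lower in eWAT were 6 cholesterol enzyme genes of 17 tested (Mvd, Acat2, Fdft1, Sqle, Sc4mol and Dhcr7), the factor gene Srebf1, Scap and the desaturase gene Scd2. Insig1, Hsd17b7 and 4 fatty acid genes were higher. Of the 35 members tested, 9 fell and 6 rose, and 20 stayed short of an adjusted p of 0.05 over 16488 genes by the quasi-likelihood test of edgeR. Over all genes, 23.2% were called lower and 33.7% higher, so the share of members that fell was near that of all genes. Fads2 passed the filter on low counts through eWAT alone, and the other 34 members gave 9 falls and 5 rises. In CPM, both spleen libraries were above both fat libraries for 17 members and below for 8, against 37.6% and 44.2% of all genes. The member median was −0.27 on the log2 scale against 0.11 over all genes tested. Of the 15 calls, 8 held in each of the 11 alternative settings that tested the gene, namely the falls of Scd2, Srebf1, Fdft1, Dhcr7 and Sc4mol and the rises of Insig1, Scd1 and Fads2. Scd1 and Fads2 were each tested in 10 of these settings. Both passed the FPKM filter, and Fads2 also the filter on counts, through eWAT alone, so those filters favoured a rise. With total count scaling, which raises the median fold change by 0.17, the split of members was 7 lower and 8 higher. Over the genes shared with the main fit, the median fold change shifted by 0.0067 without WT spleen and −0.11 without 2KR spleen. It shifted by −0.083 without WT eWAT and −0.08 without 2KR eWAT. Calls without 1 library are given for members and all genes in the closing section.

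**Figure D2:**
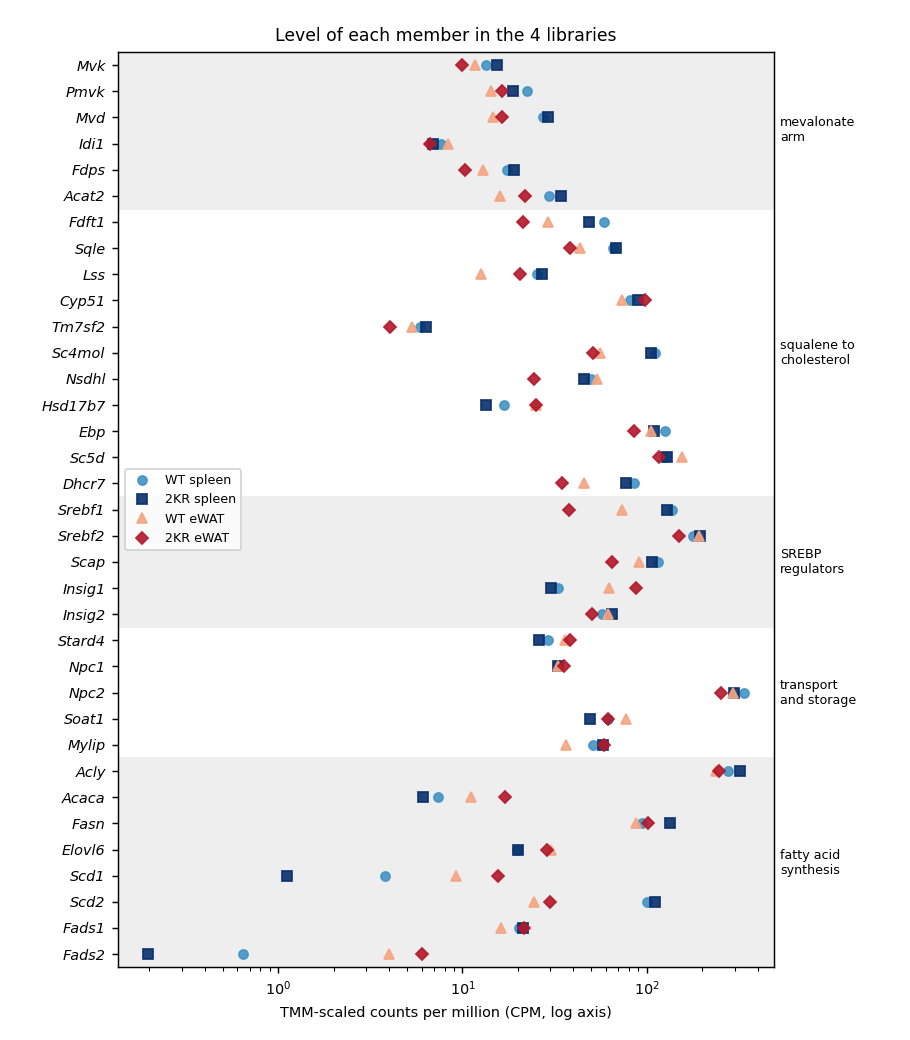
TMM-scaled CPM (x axis, log scale) of 35 members (rows, by role), with 1 point for each of the 4 libraries, coloured by tissue and genotype. Scd2, Dhcr7, Sc4mol and Srebf1 have both eWAT points left of both spleen points, Insig1 and Scd1 have them to the right, and Nsdhl has 2KR eWAT alone at the left.

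In the mevalonate arm 2 of 6 members tested fell and 0 rose. Mvd, the decarboxylase that yields isopentenyl diphosphate, was at 27.4, 29.2, 14.7 and 16.4 CPM. Both fat libraries were below both spleen libraries, and the log2 fold change was −0.86 (SE 0.24, edgeR adjusted p = 0.00835). Acat2 was at 29.6, 34.4, 16.1 and 21.9 CPM, again without overlap (−0.75, SE 0.24, adjusted p = 0.0171), but it lost the call on FPKM (adjusted p = 0.0737) and without 2KR spleen. Fdps showed the reverse dependence, with −0.65 (adjusted p = 0.067) on counts and −0.63 (adjusted p = 0.016, limma) on log2(FPKM + 1). The kinases Mvk and Pmvk had −0.41 and −0.42 (adjusted p = 0.268 and 0.187). Idi1 had 0.04 on counts and 0.25 on FPKM, and passed in neither.

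From squalene to cholesterol, 4 of 11 members fell and 1 rose. Fdft1, which makes squalene from farnesyl diphosphate (chromosome 14, 63763988 to 63796630 in mm9), was at 58.4, 48.9, 29.0 and 21.4 CPM. Its groups did not overlap, and spleen was 2.13-fold higher on average (log2 fold change −1.08, SE 0.22, adjusted p = 0.00139). Its locus overlaps that of Ctsb, so unstranded counting could mix reads of the pair. Sqle, the epoxidase that commits squalene to sterols, was at 65.4, 68.2, 43.6 and 38.5 CPM, a smaller gap (−0.70, SE 0.19, adjusted p = 0.00734) that lost its call without WT spleen or without 2KR spleen.

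Sc4mol, the methyl oxidase that strips methyl groups from lanosterol products, was at 110.3, 105.6, 55.9 and 51.4 CPM. The 2 libraries of each tissue lay close together (log2 fold change −1.004, SE 0.19, adjusted p = 0.000758). Dhcr7, the reductase that finishes cholesterol, was at 85.5, 77.4, 45.4 and 34.6 CPM, with both fat libraries low (−1.02, SE 0.20, adjusted p = 0.00114). Hsd17b7, a keto reductase between these steps, moved the other way, at 16.7, 13.4, 24.9 and 24.9 CPM (0.73, SE 0.25, adjusted p = 0.024). Its call was lost in DESeq2 and without WT spleen or 2KR spleen.

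The enzymes between them did not pass. Cyp51, the lanosterol demethylase, was at 81.2, 89.6, 73.5 and 98.3 CPM with overlapping groups and a fold change of 0.01 (SE 0.20). Sc5d and Ebp, a desaturase and an isomerase late in the pathway, had 0.10 and −0.30. Lss, the cyclase that makes lanosterol, was at 25.3, 27.0, 12.6 and 20.4 CPM, with a fold change of −0.66 just outside the threshold (adjusted p = 0.051). With genotype as a term, which compares the tissues within genotype, Lss passed (−0.69, adjusted p = 0.0246), as it did with RLE factors, in DESeq2, with no filter and without 2KR eWAT (−1.13, adjusted p = 0.000237), and over all 11 alternatives its adjusted p ran up to 0.552. Of this arm 5 members passed in the fit without that term and 6 did not.

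**Figure D3:**
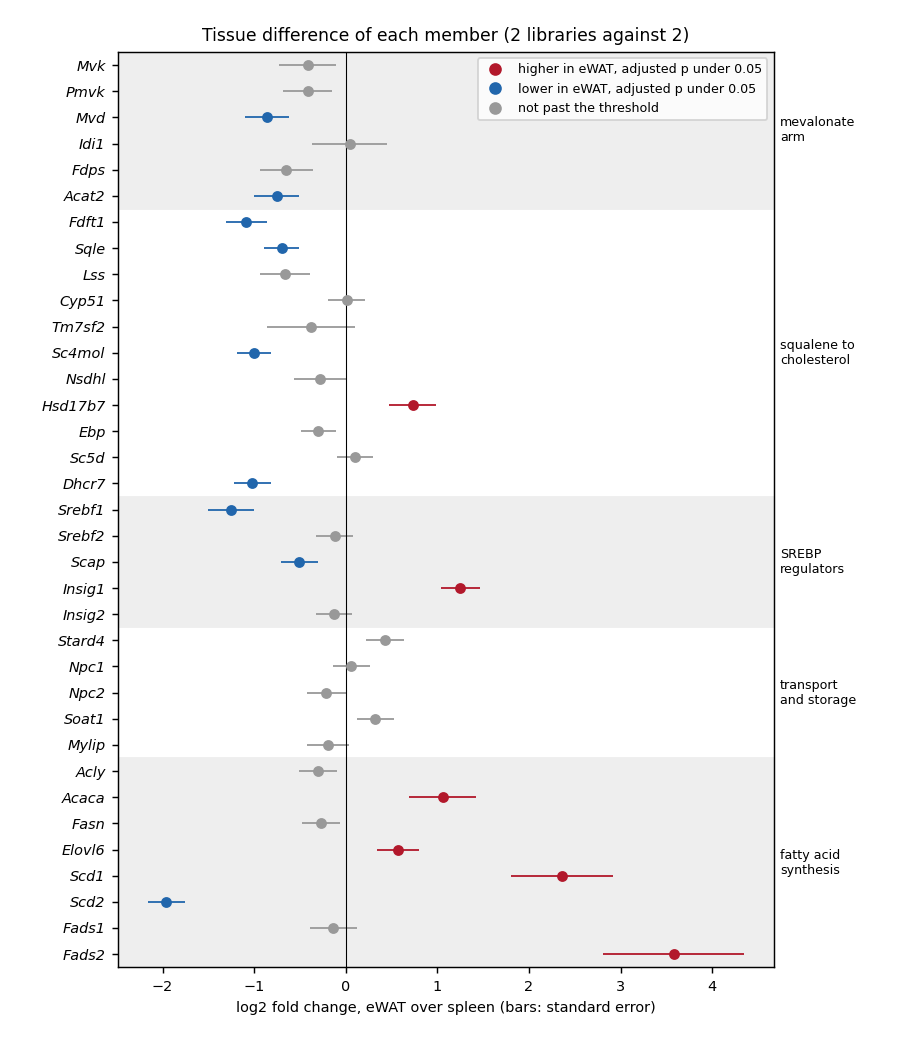
Log2 fold change of eWAT over spleen (x axis) with its standard error from the edgeR fit for 35 members (rows, by role), coloured by call. The 9 members called lower are spread over 4 roles, 4 of the 6 called higher are fatty acid genes, and the 5 transport and storage genes are all grey.

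Among the regulators, the 2 SREBP genes differed in pattern. Srebf1, whose proteins drive lipogenic genes in particular (chromosome 11, 60012591 to 60034106), was at 136.8, 128.1, 72.9 and 37.8 CPM. The spleen libraries were close together and the fat libraries were both lower, with 2KR eWAT the lowest, and the log2 fold change was −1.25 (SE 0.25, adjusted p = 0.00141). The Srebf1 locus overlaps that of Rai1, and the files list 1 transcript for it, so its start sites could not be told apart. Srebf2, the main driver of cholesterol genes and host of Mir33, was at 177, 195, 193 and 149 CPM, with overlapping groups and −0.12 (SE 0.20, adjusted p = 0.631).

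Scap was at 115, 107, 90.6 and 65.2 CPM, with spleen above fat (−0.51, SE 0.20, adjusted p = 0.0443). That call was lost under 6 of 11 alternatives, total count scaling and FPKM among them. Insig1, a retention factor that is itself a sterol-sensitive SREBP target (chromosome 5, 28397952 to 28405202), was at 33.1, 30.3, 62.7 and 87.9 CPM. Both fat libraries stood above both spleen libraries by 2.37-fold on average (1.25, SE 0.21, adjusted p = 0.000423). Insig2, its paralog, was at 57.1, 65.0, 61.4 and 50.3 CPM, with overlapping groups (−0.13, SE 0.19, adjusted p = 0.599). Insig1 thus rose where Srebf1 and the enzyme genes Fdft1, Sc4mol and Dhcr7 fell.

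The Insig2 total covered a change in its transcripts, which the files give as a 2435-base and a 1283-base form with separate starts. The longer form was at 14.8, 18.1, 18.9 and 22.0 FPKM. The shorter form was at 17.03, 18.1, 14.9 and 7.82 FPKM. Its share of Insig2 was 53.5, 50.04, 44.2 and 26.3%, lowest in 2KR eWAT, where its Cufflinks interval of 5.38 to 10.3 FPKM did not reach that of WT eWAT, 12.2 to 17.6 FPKM. These intervals describe the assignment of reads in 1 library each, and the difference has no replicate check.

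**Figure D4:**
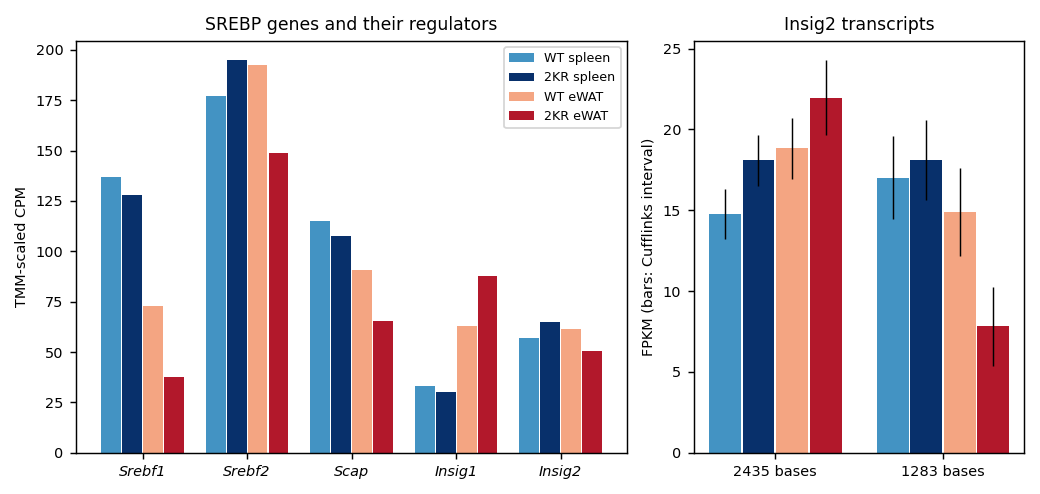
Left, TMM-scaled CPM of Srebf1, Srebf2, Scap, Insig1 and Insig2 in the 4 libraries (1 bar for each library, no replicates); right, FPKM of the 2 Insig2 transcripts with their Cufflinks intervals. Srebf1 steps down from spleen to WT eWAT to 2KR eWAT, Insig1 steps up in that order, and the 1283-base Insig2 transcript is lowest in 2KR eWAT.

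Sterol transport, storage and uptake control did not pass the test in any of 5 members. Npc1 and Npc2, which move cholesterol out of lysosomes, had fold changes of 0.06 and −0.21. Per length, Npc2 had the highest level of the list in all 4 libraries, with 89.7 to 99.3 FPKM. Soat1, which esterifies cholesterol for storage, had 0.32 (edgeR adjusted p = 0.18), and Stard4, a sterol carrier, 0.43 (edgeR adjusted p = 0.0862). Mylip, the ubiquitin ligase that removes lipoprotein receptors, had −0.19. Stard4 and Soat1 passed as higher with total count scaling and with a filter at a mean of 20 CPM.

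Fatty acid synthesis split by gene. Scd2, a stearoyl-CoA desaturase that makes monounsaturated fatty acids (chromosome 19, 44368166 to 44381352), was at 100.6, 110.6, 24.6 and 29.7 CPM. Spleen was 3.89-fold above fat, the deepest fall of the list, at −1.96 (SE 0.20, adjusted p = 5.34e-06). Scd1, the main form of liver and adipocytes (44468940 to 44482199), was at 3.796, 1.11, 9.23 and 15.7 CPM. It lies near Scd2 on the chromosome, with Scd4 listed between them. Scd1 rose, with a log2 fold change of 2.36 (SE 0.55, edgeR adjusted p = 0.00323), from 64 reads in both spleen libraries to 251 in both fat libraries. Even so, Scd1 stayed below Scd2 per length in fat, at 1.81 and 3.85 FPKM against 4.64 and 6.76. The pair are related in sequence, and how shared reads were counted is not given.

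Fads2, which starts the synthesis of long polyunsaturated fatty acids, had 8, 3, 43 and 58 reads, which is 0.646, 0.197, 3.97 and 6.02 CPM. The ratio of fat to spleen reads, scaled to TMM library size, was 12.4 (95% exact interval 6.64 to 25.6, counting error only; edgeR adjusted p = 0.0019), and Fads2 was listed at 0 FPKM in both spleen libraries. Fads1, a desaturase of a later step, did not pass, at 20.4, 21.2, 16.2 and 21.6 CPM (−0.14, SE 0.26). Scd1 and Fads2 rose in the same 2 libraries as the adipocyte, macrophage and fibroblast markers above, whose part in this was not tested.

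Acaca, the carboxylase that makes malonyl-CoA, was at 7.35, 6.10, 11.1 and 16.9 CPM (1.06, SE 0.37, adjusted p = 0.0236), but had 0.32 on FPKM (adjusted p = 0.319). Elovl6, which extends palmitate to stearate, was at 19.7, 20.1, 30.4 and 28.6 CPM (0.57, SE 0.23, adjusted p = 0.0437) and lost its call in 7 of 11 alternatives. The abundant enzymes of the route did not pass. Acly, which supplies cytosolic acetyl-CoA, was at 277, 321, 237 and 246 CPM (−0.30, adjusted p = 0.223) and Fasn, the synthase itself, at 94.7, 133, 87.9 and 101 CPM (−0.27, adjusted p = 0.284). The files split Acly into forms of 4427 and 4397 bases with 1 start, and the longer form held 56.0, 48.8, 47.5 and 31.7% of its FPKM. These forms differ little in length, and the split in each single library has no replicate check.

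On log2(FPKM + 1), 8 of 35 members fell and 4 rose, against 24% and 21.5% of 12661 symbols (limma). Acaca, Scd1 and Fads2 passed the FPKM filter through eWAT alone, and the other 32 members gave 8 falls and 2 rises. Calls on this scale without 1 library are also given for members and all genes in the closing section. Other genes of these pathways were taken from a separate list of 57, of which 54 could be tested. By edgeR, 13 of these rose, 11 fell and 30 did not pass, shares no higher than the 33.7% and 23.2% of all genes. Cd36, a fatty acid transporter, had a log2 fold change of 5.75 and Cyp27a1, a sterol hydroxylase, of 5.02 (edgeR adjusted p = 2.68e-08 and 1.95e-06). Their WT and 2KR spleen reads were few, at 53 and 25 for Cd36 and 8 and 17 for Cyp27a1. Mcat, of mitochondrial fatty acid synthesis, had a log2 fold change of −1.64 and Abcg1, a cholesterol exporter, of −1.002 (edgeR adjusted p = 9.49e-05 and 0.00112).

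The genotype comparison set 2KR against WT within each tissue. It rests on 1 library against 1, so log2 ratios are given without a test, with 95% intervals that cover counting error only. In eWAT the lowest ratios belonged to Nsdhl and Srebf1 and the highest to Scd1, Lss and Mylip. Of 35 members, 1 was at −1 or lower and 0 at 1 or higher, against 2.36% and 5.31% of 12307 genes at 5 CPM or more in a library. Counting intervals lay below 0 for 11 members, above 0 for 11 and across 0 for 13, where 37.8% of all genes lay below and 24.9% above. The member median was −0.08, the same as the −0.08 of all genes. Total count scaling raises the all-gene median by 0.28, and 6 of the 35 members change sign under it (Mvk, Sqle, Sc4mol, Hsd17b7, Npc2 and Elovl6).

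Nsdhl, an X-linked dehydrogenase that works with Sc4mol on the same methyl groups (70163860 to 70203867), was the member past −1. It was at 49.7, 45.4, 53.6 and 24.5 CPM. The other 3 libraries were alike and 2KR eWAT alone was low, with a log2 ratio of −1.13 in eWAT (−1.36 to −0.91) and −0.13 in spleen (−0.29 to 0.03). The eWAT ratio was −0.87 under total count scaling and −0.81 on FPKM. Its partner Sc4mol had −0.12 (−0.30 to 0.05) in eWAT.

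Srebf1 had a ratio of −0.95 (−1.13 to −0.77) in eWAT and −0.09 (−0.19 to 0.00) in spleen, so the genotypes parted in fat and lay close in spleen. On FPKM the eWAT ratio was −0.62. Insig1 had 0.49 (0.34 to 0.64) in eWAT and −0.13 (−0.32 to 0.07) in spleen. Scap had −0.48 (−0.62 to −0.33) in eWAT, which shrank to −0.22 under total count scaling. Srebf1 thus had its lowest and Insig1 its highest level in 2KR eWAT. Dendritic cell and macrophage marker sums were also highest in that library (15871 and 1879 CPM against 8813 and 1450 in WT eWAT). The Treg and T cell sum was lowest there (4858 CPM against 6283 in WT eWAT). Foxp3 was at 801 against 1160 CPM, whereas Ikzf2 was at 279 against 251 CPM. Fibroblast markers were lower there than in WT eWAT (229.5 against 545 CPM). The part of all these cells in these ratios was not tested.

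Enzymes after squalene went both ways in eWAT. Lss had 0.70 (0.38 to 1.03) and Cyp51 0.42 (0.28 to 0.56), whereas Fdft1 had −0.44 (−0.70 to −0.18), Sc5d −0.42 (−0.53 to −0.31) and Dhcr7 −0.39 (−0.60 to −0.19). In all, 9 of the 11 ratios of this arm were below 0, where 56.2% of all genes were. By total count 6 of 11 were, against 32.4% of all genes, and Fdft1, Sc5d and Dhcr7 had −0.18, −0.16 and −0.13. Of the fatty acid genes, 7 of 8 ratios and 6 of 8 intervals were above 0, against 43.8% and 24.9% of all genes, with no test of the group. Among them were Acaca at 0.60 (0.26 to 0.96), Fads1 at 0.41 (0.12 to 0.72) and Scd1 at 0.75 (0.39 to 1.14). On FPKM, Acaca had 0.21, and Fads2 went from 0.58 to 0.0392. Fads2 is in both the 7 and the 6 above, but it reached 5 CPM in 2KR eWAT alone. There it had 6.02 CPM against 3.97 in WT eWAT, so the filter favoured a ratio above 0. Mylip had 0.67 (0.48 to 0.86) and was at 36.6 CPM in WT eWAT against 50.9 to 58.4 CPM in the other 3 libraries, so WT eWAT stood apart.

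**Figure D5:**
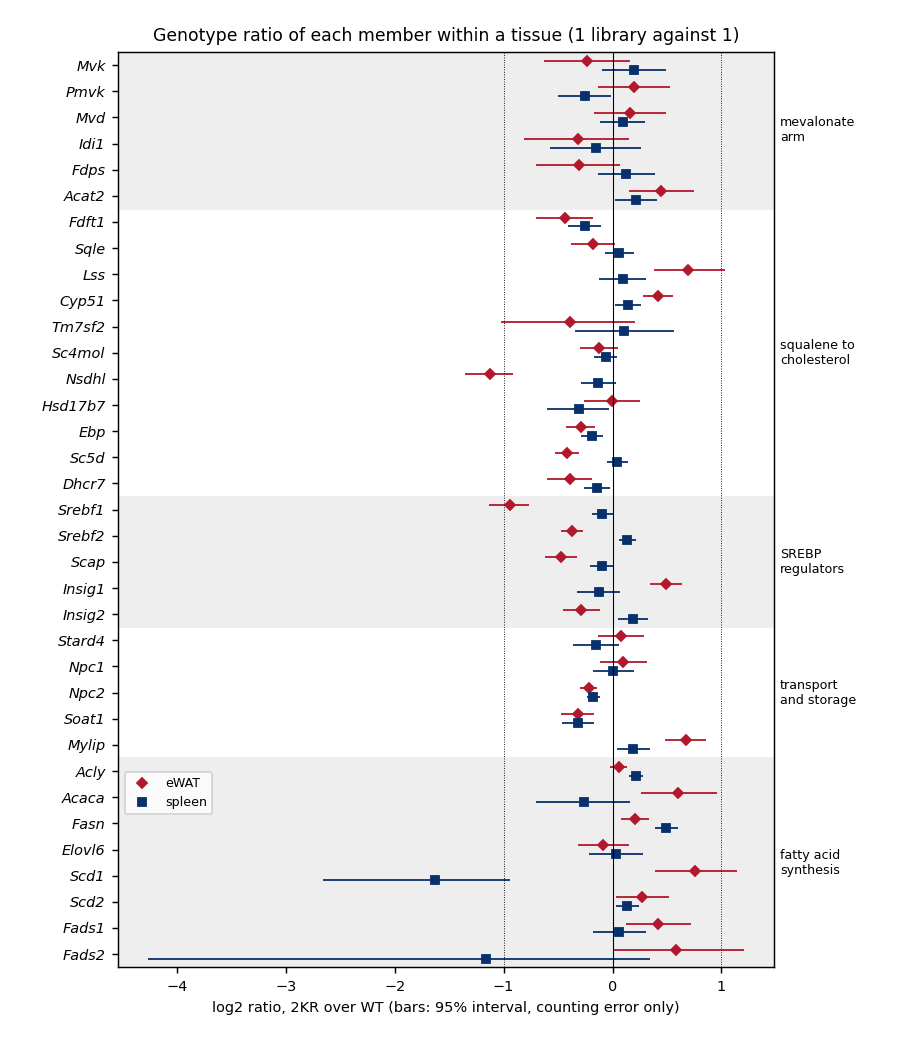
Log2 ratio of 2KR over WT (x axis) in eWAT (diamonds) and spleen (squares) for 35 members (rows, by role), with 95% intervals for counting error only; dotted lines mark −1 and 1. Nsdhl and Srebf1 lie far left in eWAT only, and 7 of the 8 fatty acid genes lie right of 0 in eWAT and 5 of 8 in spleen. Most spleen squares lie near 0, but Fasn is at 0.49, and Scd1 and Fads2, which rest on few reads, lie far left.

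In spleen most ratios were small. Counting intervals lay above 0 for 8 members and below 0 for 8, where 18.4% of all genes lay above and 30% below. The member median was 0.01, with 18 of 35 above 0. Scd1 had −1.63 (−2.66 to −0.94, 47 and 17 reads) and Fads2 −1.16 (−4.26 to 0.34, 8 and 3 reads), but both reached 5 CPM in eWAT alone, so their place in a count for spleen came from the other tissue. Of the 33 members at 5 CPM or more in a spleen library, 0 were at −1 or lower and 0 at 1 or higher, against 0.839% and 0.31% of 10006 such genes. With the filter over all libraries the shares of all genes were 5.71% and 1.03%. Fasn had 0.49 (0.39 to 0.60) and Acly had 0.21 (0.15 to 0.28), both above their eWAT ratios of 0.21 and 0.05. Of the fatty acid genes, 5 of 8 ratios were above 0 in spleen, against 40.9% of all genes, with no test of the group. Across both tissues, with tissue as a further term, edgeR called 0 of 35 members in either direction, and DESeq2 also called 0, where edgeR called 0.0667% of all genes lower and 0% higher. At an unadjusted p under 0.05 there were 3 members in edgeR, Nsdhl (−0.61, SE 0.22), Srebf1 (−0.51, SE 0.21) and Mylip (0.43, SE 0.19). This test has 1 residual degree of freedom.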

How the data were processed

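RNA was sequenced from Treg cells of 4 mouse groups with 1 library each. Per the submitters' processing notes and a deposited readme, reads were demultiplexed with bcl2fastq 1.8.4, aligned with TopHat 2.1.0 and quantified with Cufflinks 2.0.2. The authors deposited gene read counts, which are not normalized, and FPKM values for genes and transcripts. The FPKM files carry mm9 positions; the sources used here do not give how the counts were made, the sort gates or any pooling of animals.

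Counts were fitted with edgeR 4.0.16 (quasi-likelihood test, TMM, genes kept by filterByExpr) in R 4.3.3, with Benjamini-Hochberg adjustment over all genes tested and a threshold of 0.05. The deposited FPKM were tested with limma 3.58.1 on log2(FPKM + 1), for symbols at 1 or more in 2 libraries, a scale that understates the change of low genes. The tissue test uses 2 libraries a side, and its spread includes the genotype difference. Genotype ratios within a tissue used a prior count of 2 and exact binomial 95% intervals. The code was tested on simulated data. The members and gene lists were chosen with earlier results of these data known. Values in every library are printed for members past the tissue threshold, for those with a genotype ratio past 1 or −1 and for the SREBP regulators; of the other pathway genes, up to 4 a direction with small adjusted p are named. Alternatives were RLE and total count scaling, DESeq2 1.42.0, other filters, pseudocounts and leaving out each library.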

Additional observations from a re-analysis of the deposited data

Results flagged for a closer look

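In 3 members the counting intervals of the 2KR over WT log2 ratio lay on opposite sides of 0 in the 2 tissues. Srebf2 had −0.37 in eWAT and 0.14 in spleen. Insig2 had −0.29 in eWAT and 0.19 in spleen, but by total count its eWAT ratio was −0.0274, within its counting error. By total count Srebf2 had −0.11 in eWAT. Scd1 had 0.75 in eWAT and −1.63 in spleen, the latter from 47 and 17 reads in a tissue where it did not reach 5 CPM. With 1 library for each group, the difference between tissues was not tested.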

How the results depend on the processing

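No called member changed direction in the tissue comparison under any of the 11 alternatives, and 7 of 15 (Mvd, Acat2, Sqle, Hsd17b7, Scap, Acaca and Elovl6) lost the call under at least 1. The labels give no replicate numbers to pair; a fit with genotype as a term, which compares tissues within genotype, called 6 members higher and 10 lower, the added call being Lss. Fits without a library assume that the lone library left varies like the pair. Depth limits Scd1 and Fads2, which rest on few spleen reads.

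The tissue comparison called 1424 genes higher and 1201 lower with a mean of at least 20 CPM, 2727 higher on FPKM, and 3403 to 5491 higher and 1909 to 5278 lower without 1 library. Members called higher were 3 in DESeq2 and 3 to 5 without 1 library, and members called lower 5 with the 20 CPM filter and 5 to 14 without 1 library. Leaving out Idi1, Fdps and Acat2, chosen after seeing the data, left 8 lower and 6 higher. On FPKM, 1091 to 1724 genes were higher and 768 to 3675 lower without 1 library, as were 1 to 6 and 2 to 11 members, and 2 members were higher with no filter. Leaving out the members that passed a filter through eWAT alone, also chosen after seeing the data, left 5 higher and 9 lower on counts and 2 and 8 on FPKM. Among called genes 59.2% were higher, but 66.2% by total count, 51.0% in DESeq2, 47.3% on FPKM, 74.2% without WT spleen, 48.4% without WT eWAT and 44.8% without 2KR eWAT. The median fold change of all genes shifted by 0.39 with the 20 CPM filter, 0.15 on FPKM, −0.14 in DESeq2 and −0.11 without 2KR spleen.

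The common genotype effect called 1 gene higher with RLE factors, 10 by total count and 9 with no filter, and 2 lower in DESeq2, 42 with no filter and 0 with no tissue term. In eWAT, ratios at 1 or higher numbered 1462 by total count, 384 on FPKM and 52 with the 20 CPM filter, and ratios at −1 or lower 135, 118 and 153. Members there were 1 and 0 by total count and 1 and 0 on FPKM. In spleen, 9 genes on FPKM and 13 with the filter were at 1 or higher, 37 and 35 at −1 or lower, and 0 members under both. At 5 CPM or more in a spleen library, a choice added likewise, 31 genes were at 1 or higher, 84 at −1 or lower, and 0 members. Members with a higher ratio in eWAT than in spleen were 15, or 23 by total count and 9 with the filter. The causes were not tested.

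Fold changes that did not pass the test changed sign as follows. By total count, Srebf2 had 0.0344, Insig2 0.033, Mylip 0.0031 and Fads1 0.0484. With the 20 CPM filter, Nsdhl had 0.0897, Ebp 0.0912, Srebf2 0.27, Insig2 0.27, Npc2 0.18, Mylip 0.22, Acly 0.0983 and Fasn 0.14. In DESeq2, Idi1 had −0.0917, Cyp51 −0.13, Sc5d −0.0355 and Npc1 −0.0776. With no filter, Idi1 had −0.036, Cyp51 −0.0761 and Npc1 −0.0224. Cyp51 had −0.0044 with RLE factors and −0.00099 with a genotype term. On FPKM, Srebf2 had 0.0343, Fads1 0.00028 and the spleen genotype ratio of Fads2 0. Without 1 library, values ran from −0.22 to 0.1245 for Idi1, −1.05 to 0.11 for Nsdhl, −0.0617 to 0.0124 for Npc1, −0.6441 to 0.0038 for Mylip, −0.29 to 0.11 for Cyp51 and −0.22 to 0.22 for Sc5d.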
